A study of Populus tremula x Populus tremuloides with 6 samples.

Results

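In leaf RNA libraries of 3 wild-type (WT) and 3 MYB117-overexpressing hybrid poplars, 149 of 37662 counted loci stood well apart in the plants numbered 1 of both groups. Of these, 75 were high and 74 low in replicate 1. All were chosen on these values: levels are in CPM (a locus' count scaled to the same total of locus reads in each library), and a member carries a Potra gene identifier, has a mean of 10 to 1000 CPM over the 6 libraries and a MYB117 mean within 4-fold of the WT mean. In both groups its replicate 1 lies at least 2.5-fold above the higher, or at least 2.5-fold below the lower, of replicates 2 and 3. Of 34267 loci with such an identifier, 12545 met the limits on level and on the group difference, so the members are 1.19% of those, the high ones 0.598% and the low ones 0.59%.

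The plants are Populus tremula x Populus tremuloides, a cross of European and North American aspen. The MYB117 plants carry a MYB117 construct in the binary vector pMDC32, introduced by Agrobacterium tumefaciens into excised leaves of 1 clone of this hybrid. The other plants are labelled wild type with no further detail. After tissue culture, all 6 plants had 1 month under mist and 2 months in the greenhouse, and leaves 7 to 10 by the leaf plastochron index were then harvested. The labels leave unsaid whether the MYB117 plants came from separate transformation events and what a shared replicate number means, so any p-value measures the spread between these plants only.

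MYB proteins are a large family of plant transcription factors, and many of its members control phenylpropanoid and flavonoid synthesis, cell wall formation or cell shape. Leaf plastochron numbers mark developmental age along a shoot, so leaves of equal number are of like age in different plants. RNA of a whole leaf comes from mesophyll, epidermis and vein cells together, and fewer cells of a type and less RNA per cell cannot be told apart in it. Identifiers stand in the files without gene or product names, so the roles of the members, the level of MYB117 and the markers of leaf cell types are not analysed here, and no value below checks the labels of the transgenic plants. For the same reason the identifiers of 4 members only are given, in each direction the member with the largest gap and the one with the highest mean level.

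Reads in loci numbered 28960403 to 49442174 per library. WT replicate 1 was the shallowest library and MYB117 replicate 1, with 42410466, the second deepest, so the 2 libraries did not share a high or low depth. Both differed from the others of their group in how reads were spread over loci. The 10 most abundant loci of a library held 13.4% of its reads in WT replicate 1, against 8.70% and 8.67% in WT replicates 2 and 3, and 8.65% in MYB117 replicate 1, against 5.86% and 5.96%. Reads outside any locus made up 2.27% of all reads in WT replicate 1, against 1.59% and 1.53%, and 1.47% in MYB117 replicate 1, against 1.34% and 1.31%. Among the 12545 loci within the limits, the log2 ratio of replicate 1 to the mean of replicates 2 and 3 had a median of -0.25 in WT and -0.19 in MYB117, so that a typical locus was itself a little lower in replicate 1 on the CPM scale. The part of these library differences in the results below was not tested. With scaling by the trimmed mean of M-values (TMM), under which those medians were -0.01 in WT and -0.05 in MYB117, the rule found 99 high and 41 low loci, of which 71 and 41 were members, so the near-equal split into 75 and 74 depends on the scale.

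The high members ranged from moderate to abundant leaf transcripts. Potra001733g14102, with the largest gap, was at 124 CPM in WT replicate 1 and at 4.41 and 2.53 CPM in WT replicates 2 and 3. In the MYB117 plants it was at 92.3 CPM in replicate 1 and at 1.94 and 2.73 CPM in replicates 2 and 3. The plants numbered 1 thus had nearly all reads of this locus, 3584 and 3915, while no other library had more than 166. Potra004562g25071, the most abundant high member, was at 1811 CPM in WT replicate 1 and at 548 and 480 CPM in WT replicates 2 and 3. It was at 447 CPM in MYB117 replicate 1 and at 147.0 and 144 CPM in MYB117 replicates 2 and 3. The gap was 3.30-fold in WT and 3.04-fold in MYB117, and all 3 MYB117 libraries lay below all 3 WT libraries, so that replicate 1 of MYB117 was lower than replicates 2 and 3 of WT.

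The low members were of similar mean level but with smaller gaps. Potra002203g16963, the low member with the largest gap, was at 0.173 CPM in WT replicate 1, from 5 reads, and at 23.1 and 19.02 CPM in WT replicates 2 and 3. In the MYB117 plants it was at 0.731 CPM in replicate 1, from 31 reads, and at 21.2 and 15.7 CPM in replicates 2 and 3. The transcript was close to absent from both plants numbered 1 and at like levels in the other plants of either group. Potra001669g13705, the most abundant low member, was at 63.9 CPM in WT replicate 1 and at 199.1 and 209 CPM in WT replicates 2 and 3. It was at 115 CPM in MYB117 replicate 1 and at 334 and 320.3 CPM in MYB117 replicates 2 and 3. Both replicates numbered 1 lay below the other 4 libraries, and each MYB117 library lay above the WT library of its number.

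**Figure D1:**
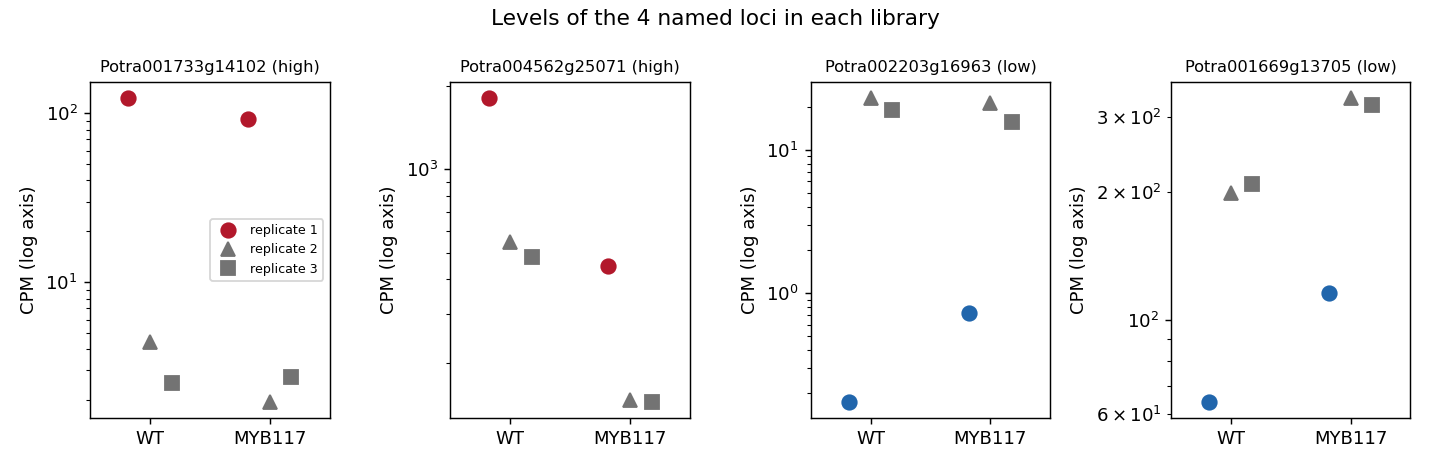
CPM (log axes) of the 4 named loci in each of the 6 libraries. Points are single libraries, coloured for replicate 1 and grey for replicates 2 and 3. In each panel replicate 1 lies apart from replicates 2 and 3 of its group, from 124 against 4.41 and 2.53 CPM in WT at the first locus to 63.9 against 199.1 and 209 CPM in WT at the last.

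The gaps of the high members tended to be wider than those of the low members. The smaller of a member's 2 gaps, which the rule puts at 2.5-fold or more, had a median of 3.77-fold over the 75 high members and reached 28.1-fold. It was at least 10-fold at 10 of them, 5- to 10-fold at 11, 3- to 5-fold at 33 and below 3-fold at 21. Over the 74 low members the median was 2.82-fold and the highest 21.5-fold, with 2 at 10-fold or more, 7 at 5- to 10-fold, 19 at 3- to 5-fold and 46 below 3-fold. These gaps chose the members and are given as a description.

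The 10 high members with gaps of at least 10-fold in both groups had lower levels in the other 4 plants, though not all of them low. They stood at 24.1 to 626 CPM in the libraries numbered 1 and 0.506 to 54.9 CPM in the others. The second of them by gap was at 149 CPM in WT replicate 1, against 7.28 and 2.499 CPM, and at 69.7 CPM in MYB117 replicate 1, against 2.27 and 3.13 CPM. The fourth was at 58.5 CPM in WT replicate 1, against 3.19 and 0.710 CPM, and at 32.0 CPM in MYB117 replicate 1, against 0.506 and 0.512 CPM. It had the widest gap of any member in the MYB117 plants, 62.5-fold. The most abundant of the 10 was at 626 CPM in WT replicate 1, against 54.9 and 26.04 CPM, and at 338 CPM in MYB117 replicate 1, against 29.2 and 25.7 CPM.

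Of the 12 high members with a mean of at least 100 CPM, levels in the libraries numbered 1 ran from 161 to 1811 CPM, and their smaller gaps had a median of 3.19-fold. The second most abundant was at 1495 CPM in WT replicate 1, against 473 and 246 CPM, and at 717 CPM in MYB117 replicate 1, against 139 and 201 CPM. The third was at 1154 CPM, against 382 and 236 CPM, in WT and at 773 CPM, against 138 and 105 CPM, in MYB117. At both, WT replicate 1 was highest, MYB117 replicate 1 next and the other 4 plants lower.

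Of the 10 low members with a mean of at least 100 CPM, levels in the libraries numbered 1 were 10.6 to 115 CPM, and in the other libraries 61.1 to 348 CPM. The second most abundant was at 18.1 CPM in WT replicate 1, against 167 and 291 CPM, and at 70.4 CPM in MYB117 replicate 1, against 320 and 332 CPM. The third was at 10.6 CPM, against 182 and 283 CPM, in WT and at 17.8 CPM, against 211 and 316 CPM, in MYB117. It is the second of the low members by gap, and the 2 low members with gaps of at least 10-fold are this one and Potra002203g16963.

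Summed, the 75 high members held 1.56% of the reads in loci of WT replicate 1, against 0.377% and 0.275% in WT replicates 2 and 3. They held 0.814% in MYB117 replicate 1, against 0.177% and 0.182%. The 74 low members held 0.101% in WT replicate 1, against 0.418% and 0.491%, and 0.0998% in MYB117 replicate 1, against 0.411% and 0.392%. The sums of the high members were higher in WT than in MYB117 at each replicate number, while those of the low members were nearly equal in the 2 libraries numbered 1. At 72 of the 75 high members both libraries numbered 1 lay above all 4 others, and at 73 of the 74 low members below them. Over the 12545 loci within the limits, 27.3% had both libraries numbered 1 beyond the other 4 on the same side. The rule uses these values, so nothing is read from the shares.

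**Figure D2:**
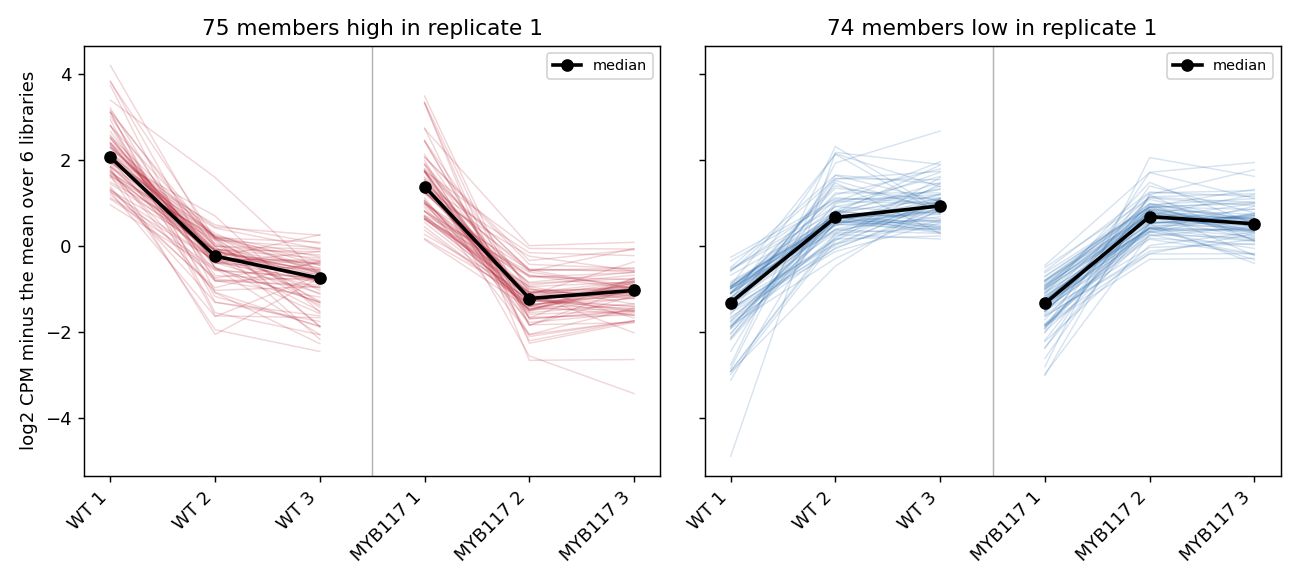
Each thin line is a member, drawn as its log2 CPM in each library minus its own mean over the 6 libraries, for the 75 high members (left) and the 74 low members (right); black points are medians. Replicate 1 stands apart in both groups, and the medians of the high members are lower in MYB117 than in WT at each replicate number.

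Members close to the limit resembled those just outside it. The high members nearest to the limit had smaller gaps of 2.504, 2.51 and 2.54-fold, and the 3 loci just outside had 2.4997, 2.499 and 2.49-fold. The low members nearest to it had 2.51, 2.52 and 2.52-fold, and the 3 loci just outside 2.48, 2.45 and 2.45-fold. The last locus to miss, on the high side, was at 555 CPM in WT replicate 1, against 222 and 151 CPM, and at 289.7 CPM in MYB117 replicate 1, against 78.1 and 67.99 CPM. The members are therefore the outer end of a continuous range.

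The rule asks for the same direction in both groups, so the agreement of the groups at the members follows from the choice. Each group's own list can be set beside the members. In WT alone, replicate 1 was high by the 2.5-fold limit at 198 loci and low at 543 of the 12545, or 1.58% and 4.33%. In MYB117 alone it was high at 170 and low at 187, or 1.36% and 1.49%. The 75 high members make up 37.9% of the WT list and 44.1% of the MYB117 list, and the 74 low members 13.6% and 39.6%. Of the loci high in WT replicate 1, 0 were low in MYB117 replicate 1, and of those low in WT replicate 1, 7 were high in MYB117 replicate 1. The larger WT list of low loci is the one that overlapped least, as a share of itself.

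**Figure D3:**
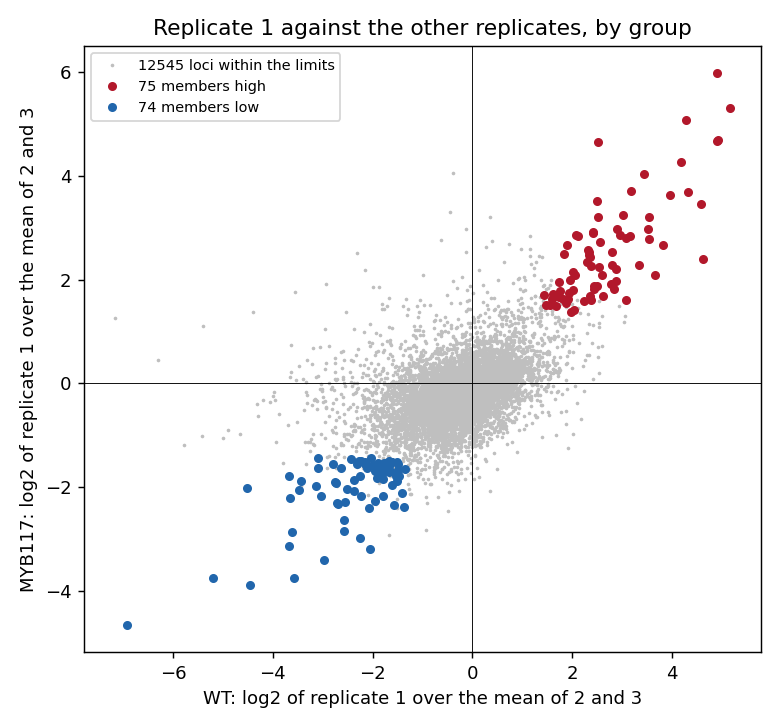
Log2 ratio of replicate 1 to the mean of replicates 2 and 3 in WT (x axis) and in MYB117 (y axis) for the 12545 loci within the limits (grey), with the 75 high members in red and the 74 low members in blue. The members form the outer ends of a cloud that is tilted along the diagonal, and the cloud's medians, at -0.25 in WT and -0.19 in MYB117, are below 0.

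Replicates 2 and 3 gave no such set. The same rule applied to replicate 2, or to replicate 3, found 0 high and 0 low loci among the 12545. At a limit of 1.5-fold, replicate 1 was high in both groups at 260 loci and low at 679. Replicate 2 was high at 6 and low at 3, and replicate 3 high at 3 and low at 7. At 5-fold, replicate 1 still had 21 high and 9 low loci, and at 10-fold 10 and 2. These counts describe the 6 libraries and are not a test of chance. Each group's own lists were not empty for the other numbers: WT replicate 3 was high by 2.5-fold at 126 loci and WT replicate 2 at 48, but MYB117 replicates of the same number shared 0 of them.

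**Figure D4:**
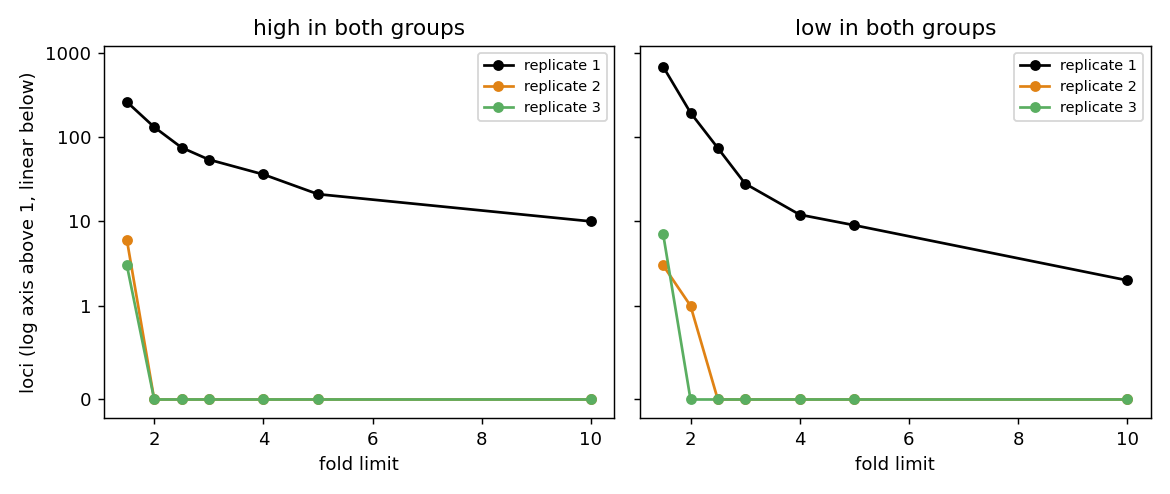
Number of the 12545 loci at which the replicate of a given number was high (left) or low (right) in both groups, against the fold limit, on a y axis that is logarithmic above 1 and linear below. Replicate 1 falls from 260 to 10 high loci and from 679 to 2 low loci between limits of 1.5 and 10-fold, while replicates 2 and 3 are at 0 from 2.5-fold on.

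High members with a wide gap in WT tended to have a wide gap in MYB117. By rank, the low members did so no more than the other loci within the limits. Here a gap is the log2 CPM of replicate 1 minus the mean log2 CPM of replicates 2 and 3. Across the 75 high members, these log2 gaps of the 2 groups had a Pearson correlation of 0.78 (Spearman 0.73), and across the 74 low members 0.68 (Spearman 0.38). Across the 12396 other loci within the limits the value was 0.41 (Spearman 0.43). For the deviations of replicates 2 and 3 at those loci it was 0.15 and 0.06 (Spearman 0.18 and 0.19). The Pearson values for replicates 2 and 3 were 0.30 and 0.55 across the high members and 0.49 and 0.13 across the low members. These are descriptions across loci, which share the 6 libraries and their scaling, and the limits of the rule bear on the members' values. Among the high members the WT gap to the nearer replicate was the larger one at 40 of 75, and among the low members at 47 of 74. For all loci the log2 ratio of replicate 1 to the mean of replicates 2 and 3 is used instead. It was higher in WT than in MYB117 at 57.3% of the high members and 45.5% of all loci within the limits. It was lower in WT at 66.2% of the low members and 54.5% of all loci. Nothing is read from these shares.

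The rule says nothing of how replicates 2 and 3 differ from each other, and here the WT plants showed a gradation. At 67 of the 75 high members WT replicate 2 was above WT replicate 3, with a median log2 ratio of 0.47, that is, on the side of replicate 1. Over all 12545 loci the median was 0.08 and 60.3% were above 0. At 46 of the 74 low members WT replicate 2 was below WT replicate 3, again on the side of replicate 1, with a median of -0.17. In the MYB117 plants the medians lay on the other side. There replicate 2 was above replicate 3 at 27 of the 75 high members (36%, median -0.11). It was above at 47 of the 74 low members (63.5%, median 0.11). Over all 12545 loci it was above at 45.01%, with a median of -0.03. The high members thus lay on the side of most loci, and the low members on the opposite one.

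The fold between WT replicates 2 and 3 also had higher medians over the members than over other loci. It had a median of 1.42 over the high members, 1.27 over the low members and 1.16 over all loci within the limits. In the MYB117 plants these medians were 1.17, 1.20 and 1.11. The widest spread among the high members was at a locus with 61.01 CPM in WT replicate 1, 17.6 in WT replicate 2 and 3.66 in WT replicate 3, a 4.81-fold difference between the last 2. In MYB117 that locus was at 19.3, 0.991 and 0.540 CPM. In both groups replicate 2 of this locus was above replicate 3. No test was made of these differences in spread.

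Most high members were lower in MYB117 than in WT, with the smallest share in the plants numbered 3. MYB117 replicate 1 was below WT replicate 1 at 63 of the 75 high members, or 84.0%, with a median log2 ratio of -0.81, where 42.6% of all loci within the limits were below and the median was 0.12. In replicates 2 and 3 the mean of MYB117 was below that of WT at 61 of the 75, or 81.3%, with a median of -0.70. Over all loci 43.7% were below and the median was 0.08. Taken by number, MYB117 replicate 2 was below WT replicate 2 at 63 of the 75 (median -1.03), and MYB117 replicate 3 below WT replicate 3 at 48 of the 75 (median -0.22). At 58 high members (77.3%) MYB117 was lower on both counts, and at 9 (12%) higher on both. Over all loci within the limits these shares were 31.7% and 45.4%. Among the low members MYB117 replicate 1 was below WT replicate 1 at 36 of 74 (median 0.02). The mean of MYB117 replicates 2 and 3 was below at 41 of 74 (median -0.16). Both were below at 31 (41.9%) and both above at 28 (37.8%). By number, MYB117 was below WT at 38 of 74 in replicate 2 (median -0.01) and at 46 of 74 in replicate 3 (median -0.34). Over all loci within the limits 46.8% and 40.4% were below (medians 0.04 and 0.12). MYB117 was thus below WT at 48.6%, 51.4% and 62.2% of the low members in replicates 1, 2 and 3. Over all loci within the limits the shares were 42.6%, 46.8% and 40.4%. The rule bounds the difference of the group means at 4-fold and asks for a gap in the same direction in both groups. The values at number 1 and in replicates 2 and 3 are therefore not independent of each other. These are descriptions, and nothing particular to the members is read from them.

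The high member with the largest positive difference was at 365 CPM in MYB117 replicate 1 against 173 CPM in WT replicate 1. In the other plants it was at 55.6 and 58.7 CPM in MYB117 and at 14.3 and 10.1 CPM in WT, so each MYB117 library was above the WT library of its number. Among the low members the largest positive difference in replicates 2 and 3 was at a locus with 39.1 and 45.8 CPM in MYB117 and 13.9 and 24.2 CPM in WT. Its libraries numbered 1 were at 3.14 CPM in MYB117 and 1.59 CPM in WT. The low member at the other end was at 9.57 and 9.61 CPM in MYB117 replicates 2 and 3 and at 48.1 and 28.3 CPM in WT, with 3.07 and 4.49 CPM in the libraries numbered 1.

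**Figure D5:**
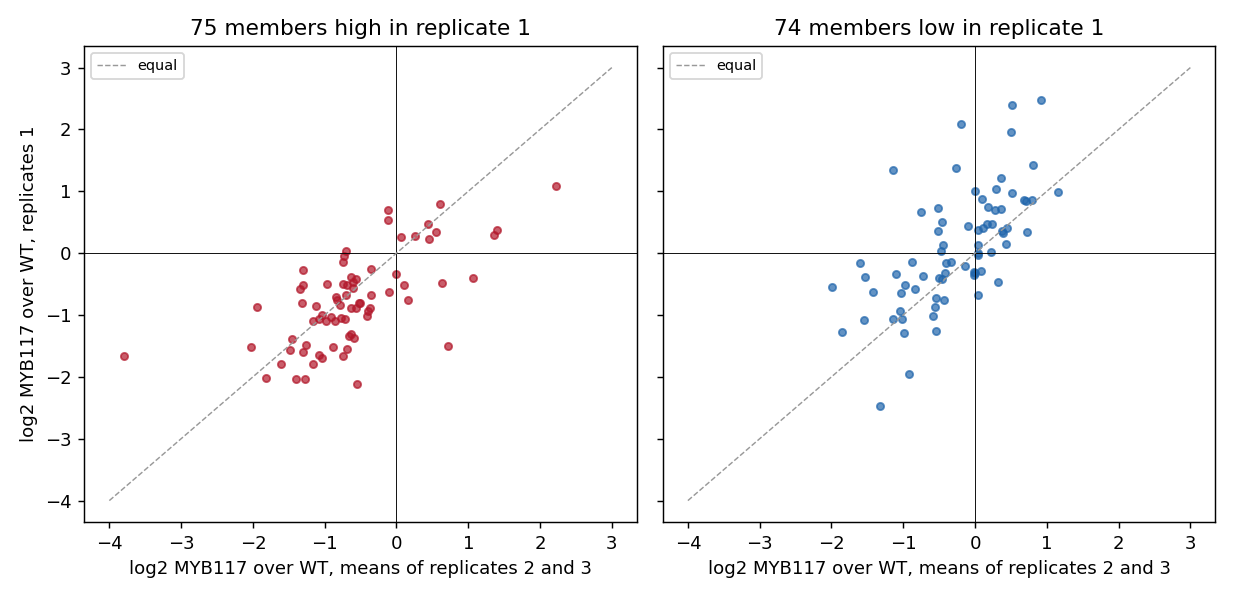
Log2 ratio of MYB117 to WT in the libraries numbered 1 (y axis) against that in the means of replicates 2 and 3 (x axis), for the 75 high (left) and 74 low members (right); the dashed line marks equal values. Most high members lie at the lower left, with medians of -0.81 and -0.70, while the low members lie on both sides of 0.

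The test of MYB117 against WT in the 6 libraries, with no covariate, called none of the members. All 149 members passed the expression filter, and 0 of them passed an adjusted p of 0.05 in the quasi-likelihood test of edgeR, Benjamini-Hochberg adjusted over 26854 loci. At that threshold 4599 loci were called, or 17.1% of those tested. At an unadjusted p below 0.05 there were 2 high and 2 low members, against 8922 of all loci. DESeq2 called 2 high and 2 low members, all lower in MYB117, where it called 27.5% of all loci and 13% as lower. It gave no p-value for Potra001733g14102, so this member could not be called there. The rule chose loci that vary widely within both groups and bounded this contrast, so nothing is read from the count. The fitted log2 fold change had a median of -0.91 over the high members and -0.19 over the low members, against -0.06 over all tested loci. Leaving out 1 of the libraries numbered 1 alone moved these medians, to 0.79 and -0.65 without WT replicate 1 and to -2.43 and 0.21 without MYB117 replicate 1. Other single libraries moved them as well. They were -1.27 and -0.01 without WT replicate 2, and -1.36 and 0.10 without WT replicate 3. Without MYB117 replicate 2 they were -0.52 and -0.62, and without MYB117 replicate 3 -0.51 and -0.48.

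With both libraries numbered 1 left out, a comparison chosen after seeing the data that sets 2 WT against 2 MYB117 plants, 47 members were called. Of the high members 27 were lower and 2 higher in MYB117, and of the low members 16 were lower and 2 higher, where 20.6% of all tested loci were called, 9.9% lower and 10.7% higher. The medians were -0.75 for the high and -0.22 for the low members, against -0.03 over all tested loci. In these 4 libraries both MYB117 plants lay below both WT plants at 44 of the 75 high members and above at 9, where 28% and 40.2% of all loci within the limits did so. For the low members the numbers were 26 below and 18 above of 74. The rule bounds the group difference in the means of all 6 libraries, not in these 4. There the log2 ratio of MYB117 to WT ran from -3.79 to 2.22 over the high members. As the rule also used the values of these 4 libraries, the counts are given as a description.

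Some of the named loci, but not all, passed the test once the libraries numbered 1 were left out. Potra004562g25071 had a log2 fold change of -2.08 (SE 0.78) in all 6 libraries and did not pass the test (adjusted p = 0.12, edgeR), while without the libraries numbered 1 it was at -1.88 (SE 0.16, adjusted p = 0.0021, edgeR). DESeq2 called it with all 6 libraries, at -2.07 (adjusted p = 0.019). Potra001669g13705 was at 0.64 (SE 0.50, adjusted p = 0.41, edgeR) and, without the libraries numbered 1, at 0.62 (SE 0.16, adjusted p = 0.044, edgeR). Potra001733g14102 was at -0.59 (SE 1.90, adjusted p = 0.86, edgeR) and Potra002203g16963 at -0.22 (SE 1.40, adjusted p = 0.93, edgeR), and neither passed without the libraries numbered 1 (adjusted p = 0.28 and 0.43, edgeR). For Potra001733g14102 a single library sets the sign, since its log2 fold change was 3.32 without WT replicate 1 and -4.51 without MYB117 replicate 1.

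The members came from many places in the list of loci. All 75 high and all 74 low members have distinct identifiers, and 1 high and 4 low members carry an identifier that another locus also carries, so their counts may be split. The first number of an identifier was shared by 2 pairs of high and 2 pairs of low members. One high pair is Potra004562g25071 and a member 2 places from it in the files, which was at 238 CPM in WT replicate 1, against 47.5 and 45.2 CPM, and at 91.4 CPM in MYB117 replicate 1, against 22.2 and 11.8 CPM. One low pair is Potra002203g16963 and the locus listed next to it, which was at 6.53 CPM in WT replicate 1, against 17.01 and 17.6 CPM, and at 4.08 CPM in MYB117 replicate 1, against 16.7 and 18.9 CPM. That pair is the only one listed side by side among the members of 1 direction, and its 2 loci differ in gap, 21.5-fold against 2.61-fold.

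Members were found at all levels within the limits. Their mean level ran from 10.5 to 596 CPM over the high members, with a median of 33.5, and from 10.1 to 207 CPM over the low members, with a median of 23.6, against a median of 29.8 over all loci within the limits. The rule found 52 members among the 3925 loci of 10 to 20 CPM (1.32%), 57 among 4964 of 20 to 50 CPM (1.15%), 18 among 2159 of 50 to 100 CPM (0.834%) and 22 among 1497 of 100 CPM and more (1.47%). Outside the limits, the same 2.5-fold gap in both groups was seen at 40 high and 96 low of 7596 loci with a mean of 1 to 10 CPM, and at 1 high and 0 low of 70 loci above 1000 CPM. Where the groups differed by more than 4-fold it was seen at 10 high and 3 low of 487 loci. Loci without an identifier held 2 high and 1 low among 392, and microRNA hairpin loci 0 among 7.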

How the data were processed

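Leaf mRNA of 6 plants, 3 WT and 3 MYB117, was sequenced. The authors deposited raw read counts per locus, with no normalization. Per the submitters' processing notes, the tools included HTSeq 0.6.1, HISAT2 2.1.0 and Cufflinks; build, annotation and counting options: not given in the sources used here. In each file, 5 closing lines count reads given to no locus (27.0% to 29.6% of a library) and were used in neither library sizes nor tests.

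CPM were computed from the deposited counts without further scaling. MYB117 was tested against WT with edgeR 4.0.16 (R 4.3.3), quasi-likelihood F test, two-sided, TMM scaling, the default expression filter and no covariate, with Benjamini-Hochberg adjustment over all loci that passed; the SE is the size of the log2 fold change divided by the square root of F. The script was tested on simulated data. Alternatives were DESeq2 1.42.0, RLE scaling, no filter, a replicate block, single libraries left out and other limits of the rule.

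The members and lists were chosen with earlier results of these data known. Named loci are, in each direction, the first by the smaller of the 2 groups' gaps and the first by mean CPM; other members described by rank or as extremes were picked after their values were seen. Lists by product name were not analysed here.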

Additional observations from a re-analysis of the deposited data

How the results depend on the processing

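The number of members follows the limits of the rule. It was 131 high and 194 low with a limit of 2-fold, 36 and 12 with 4-fold, and 116 and 170 with no upper limit on the level and a lower one of 1 CPM. With TMM-scaled CPM 41 were low. It was 85 and 77 with no limit on the group difference and 77 and 75 with all labels. With 1 of the libraries numbered 2 or 3 left out it was 77 to 97 high and 78 to 135 low, the highest low count without MYB117 replicate 3.

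The number of all loci called, 4599, was 7392 with DESeq2 and 1552 to 5112 with 1 library left out, the lowest without MYB117 replicate 2; without WT replicate 2 or MYB117 replicate 1 or 3 it was 2242, 2317 or 1708. The members called, 0, were 4 with DESeq2, all 4 lower in MYB117, and 0 to 2 with 1 library left out (2 lower without WT replicate 1, and 0 higher in each). Without both libraries numbered 1 they were 47, of which 43 lower and 4 higher. With 1 library left out the median log2 fold change was -2.43 to 0.79 for the high and -0.65 to 0.21 for the low members. RLE scaling and no count filter moved no count by over 1.5 times. With 1 library left out, Potra002203g16963 was at -0.82 to 0.34 and Potra001733g14102 at -4.51 to 3.32. Potra002203g16963, at -0.22 with all libraries, was at 0.28 and 0.09 without WT replicates 2 and 3, at 0.34 without MYB117 replicate 1 and at 0.13 with the replicate block; Potra001733g14102 was at 3.32 without WT replicate 1. The cause was not tested.

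The labels do not say that equal numbers mark pairs, and the libraries were not treated as paired: the deviations from group means correlated at 0.37, 0.18 and 0.04 for numbers 1, 2 and 3, and WT replicate 3 correlated best with MYB117 replicate 2, at 0.39. With the replicate number as a block, 44 of the 149 members were called (30 high and 14 low ones), of which 41 lower and 3 higher. Of all 26854 tested loci 4637 were called, 2067 lower and 2570 higher. The rule chose members by a gap shared at number 1, which the block takes up, so nothing is read from these counts. Potra004562g25071 was among the 44 members called with the block (log2 fold change -1.98, adjusted p = 0.011, edgeR). At this depth 1 read is 0.0202 to 0.0345 CPM, and the counting error of the gaps was not computed. Some wide gaps rest on few reads. Potra002203g16963 had 5 reads in WT replicate 1 and 31 in MYB117 replicate 1. The high member with the 62.5-fold gap had 25 and 18 reads in MYB117 replicates 2 and 3.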
